A study of Mus musculus with 23 samples.

Results

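The inhibitors of cyclin-dependent kinases (CDKs) were examined as 8 genes in mouse mammary carcinomas, and all 8 were among the 3826 genes of the amplicon panel and among the 2925 that passed the filter on low counts. They were chosen by symbol. They comprise the INK4 genes Cdkn2a, Cdkn2b, Cdkn2c and Cdkn2d, the CIP/KIP genes Cdkn1a, Cdkn1b and Cdkn1c, and Cdkn3, which belongs to neither family and encodes a phosphatase that acts on CDK2. The 23 tumours were 12 from mice given abemaciclib, an oral small-molecule inhibitor of CDK4 and CDK6, at 90 mg/kg daily by gavage, and 11 from mice given vehicle (control). In both groups tumours had been induced with doxycycline from 6 weeks of age, treatment was assigned at random once tumours were established, and tissue was frozen after the 12th dose. The labels name no transgene, promoter or strain, and they do not say whether tumours share an animal. All p-values therefore measure the spread between tumours and treat the tumours as independent. If some tumours share an animal, the p-values could be too small.

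INK4 proteins bind CDK4 and CDK6 and keep them from pairing with D-type cyclins. CIP/KIP proteins bind complexes of CDK2 with cyclin E or A and block them, while they also help cyclin D and CDK4 to assemble. Unblocked CDK4 and CDK6 phosphorylate the retinoblastoma protein, which releases E2F factors and starts S phase, and abemaciclib acts on the same kinases as the INK4 proteins. These inhibitors are controlled by transcription and by protein turnover, and RNA counts do not read protein turnover.

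Libraries held 2756919 to 4990391 counts in abemaciclib tumours and 3044380 to 4492736 in control tumours. The epithelial markers Epcam and Krt8 were detected in all 23 tumours, with Epcam at 838 to 1406 CPM (counts scaled to library size with TMM factors) in abemaciclib and 791 to 1758 CPM in control tumours. Each gene is read by 1 short amplicon whose yield is not known, so CPM values are compared between tumours for 1 gene and not between genes. In bulk tumours, fewer cells of a type and less RNA per cell cannot be told apart. No amplicon position is stated in the sources used here, so for Cdkn2a, which makes p16INK4a and p19ARF from separate first exons, the transcript that was read is unknown.

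The log2 fold change, abemaciclib over control, was negative in 7 of the 8 genes and had a median of -0.32 over the 8, while 48.9% of all 2925 tested genes were negative with a median of 0.0055. Cdkn2c and Cdkn3 stood lowest, at -1.25 and -1.57, followed by Cdkn2d at -0.52 and Cdkn1b at -0.43, and the other 4 lay between -0.20 and 0.050. By edgeR's quasi-likelihood test 0 of 8 passed a Benjamini-Hochberg adjusted p of 0.05 over all genes, where 0 of 2925 (0%) passed. At an unadjusted p under 0.05 by edgeR, 4 of the 8 were lower and 0 higher, where 5.81% of all tested genes were lower, 7.59% higher and 13.4% (392 genes) either. DESeq2's Wald test called 2 of the 8, Cdkn2c and Cdkn3, both lower, where it called 2.05% of all genes (60 genes), 0.444% lower and 1.61% higher. Limma-voom with quality weights called 3 of the 8, Cdkn2c, Cdkn3 and Cdkn2d, all lower, where it called 4.34% of all genes (127 genes), 2.39% lower and 1.95% higher.

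**Figure D1:**
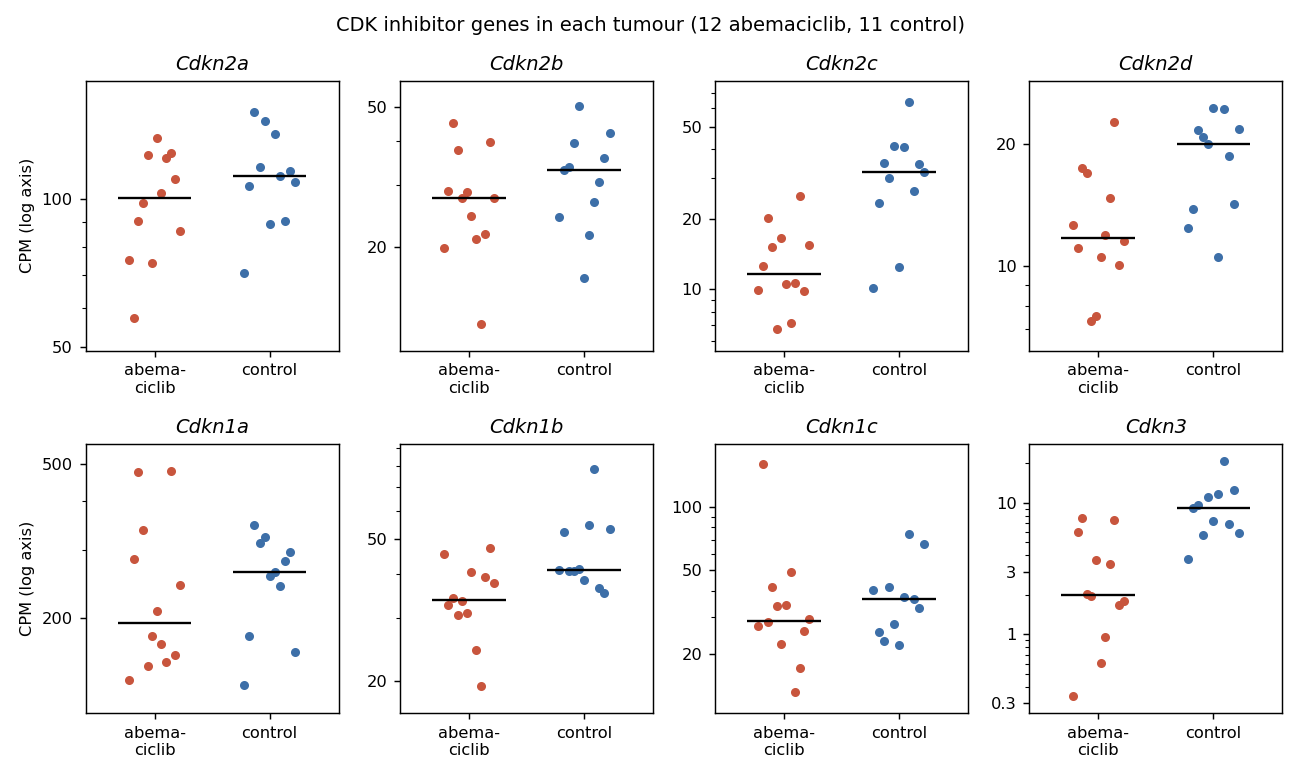
Level of each gene in CPM (log axis, own scale in each panel) in every tumour, abemaciclib on the left and control on the right, with the group median as a bar. All 12 abemaciclib tumours lie below the control median for Cdkn2c and Cdkn3, while Cdkn1a has 2 abemaciclib tumours above every control tumour.

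Cdkn2c encodes p18INK4c, an inhibitor of CDK4 and CDK6. The gene lies on chromosome 4 (109660876 to 109667189, minus strand, GRCm38). The lowest, median and highest values of Cdkn2c were 6.75, 11.6 and 25.2 CPM in abemaciclib tumours, against 10.1, 32.04 and 64.0 CPM in control tumours. All 12 abemaciclib tumours lay below the control median, which held for 0.752% of the tested genes, and 4 lay below every control tumour, so the groups overlapped. Cdkn2c averaged 13.4 ± 5.48 CPM (SD, n = 12) in abemaciclib and 31.9 ± 14.8 CPM (SD, n = 11) in control tumours. The log2 fold change was -1.25 (SE 0.260, 95% interval -1.79 to -0.72), or 0.420 of the control level. The adjusted p was 0.0574 by edgeR, 0.00178 by DESeq2 and 0.0128 by limma-voom. The gene ranked 3 by p among all 2925. Control tumours 1, 6 and 2, at 10.1, 12.4 and 23.5 CPM, lay below the highest abemaciclib tumour, and the other 8 control tumours lay above it. With 1 tumour left out at a time the adjusted p by edgeR ran from 0.0132 to 0.0946, and it passed 0.05 without abemaciclib tumour 2, 3 or 10 or control tumour 1 or 6.

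The RefSeq promoter table (GRCm38.p6) holds 7 of the 8 genes in 10 windows, and the 250 bases before each start were searched on both strands for 3 short motifs of cell cycle genes and for the p53 site. The E2F core was taken as TTCCCGC in its first form, TTCGCGC in another, TTGCCGC in the third and TTGGCGC in the last, and 7.89% of 32841 windows of the same length hold one. One of the Cdkn2c starts and one of the Cdkn2a starts had a match, which is shown here in capitals with its neighbouring bases, since E2F is the factor that CDK4 and CDK6 release.
Cdkn2c, chr4:109666765-109666791, minus strand: gggcccggccTTCCCGCtcccgcggcg
Cdkn2a, chr4:89294701-89294727, minus strand: ctgggaagctTTCCCGCgcgactgggg
The match begins 25 bases before the Cdkn2c start and 98 bases before the Cdkn2a start. No E2F core was found before the downstream start of either gene or before the other 5 genes in the table.

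Cdkn3 encodes a dual-specificity phosphatase, also named KAP, that removes the activating phosphate from CDK2. It lies on chromosome 14 (46760541 to 46771669, plus strand). In CPM, the lowest, median and highest values of Cdkn3 were 0.342, 1.99 and 7.67 in abemaciclib tumours, against 3.75, 9.21 and 20.8 in control tumours. Of the abemaciclib tumours 9 of 12 lay below every control tumour, and the other 3 lay within the control range, below its median. The difference was -1.57 on the log2 scale (SE 0.380, 95% interval -2.35 to -0.79), or 0.337 of the control level, with an adjusted p of 0.0651 by edgeR, 0.00782 by DESeq2 and 0.00948 by limma-voom. With 1 tumour left out at a time the adjusted p by edgeR ran from 0.0279 to 0.119, and it passed 0.05 without abemaciclib tumour 2, 3 or 10, which were the 3 highest abemaciclib tumours. Cdkn3 was the least deeply read of the 8, with 1 to 40 counts per tumour in abemaciclib and 13 to 99 in control, and a mean count of at least 50 would have removed it from the test.

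The 250 bases before the Cdkn3 start are shown because they hold motifs typical of genes expressed in G2 and M phase. The cell cycle homology region (CHR, TTTGAA or TTCGAA) and the CCAAT box (CCAAT) are in capitals, read on either strand.
Cdkn3, chr14:46760291-46760540, plus strand: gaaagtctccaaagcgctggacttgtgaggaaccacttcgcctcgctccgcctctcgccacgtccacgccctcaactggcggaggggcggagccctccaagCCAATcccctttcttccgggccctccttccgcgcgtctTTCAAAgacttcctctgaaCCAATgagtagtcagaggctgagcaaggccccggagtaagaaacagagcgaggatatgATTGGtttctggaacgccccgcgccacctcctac
The CHR begins 111 bases before the start, and the 3 CCAAT boxes begin 149, 92 and 34 bases before it. Of all windows of this length, 17.1% hold a CHR, 2.79% at least 3 CCAAT boxes, and 1.71% a CHR together with at least 2 CCAAT boxes. Among the other 6 genes with a window, which leave out Cdkn1c, a CHR was found only before Cdkn2b, and CCAAT boxes only before Cdkn1b and Cdkn2d.

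Cdkn2d encodes p19INK4d, an INK4 protein of CDK4 and CDK6 that is distinct from p19ARF. It lies on chromosome 9 (21288410 to 21291407, minus strand). It ranged over 7.31, 11.8 and 22.7 CPM (lowest, median and highest) in abemaciclib tumours, against 10.54, 20.04 and 24.5 CPM in control tumours. Below the control median lay 11 of 12 abemaciclib tumours (4.14% of tested genes had at least 11 there), and 3 lay below every control tumour. The exception was abemaciclib tumour 10, at 22.7 CPM. The log2 fold change was -0.52 (SE 0.190, 95% interval -0.91 to -0.12), with an adjusted p of 0.208 by edgeR and 0.144 by DESeq2, while limma-voom called it at 0.0401.

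Cdkn2a and Cdkn2b, the tumour suppressor pair on chromosome 4 that is separated by 11645 bases, did not pass any of the 3 tests. Cdkn2a (89274471 to 89294653, minus strand) was at 57.3, 100.7 and 133 CPM (lowest, median and highest) in abemaciclib tumours, against 70.7, 112 and 151 CPM in control tumours. Cdkn2b (89306299 to 89311039, minus strand), which encodes p15INK4b, was at 12.1, 27.5 and 45.0 CPM in abemaciclib tumours, against 16.3, 33.0 and 50.1 CPM in control tumours. For both genes 11 of 12 abemaciclib tumours lay within the control range. The log2 fold changes were -0.18 (SE 0.139, 95% interval -0.46 to 0.11) for Cdkn2a and -0.20 (SE 0.193, 95% interval -0.60 to 0.19) for Cdkn2b, with adjusted p of 0.620 and 0.681 by edgeR. Between these neighbours Pearson's r was -0.24 in abemaciclib tumours (permutation p = 0.458, adjusted p = 0.886) and Spearman's rho -0.28 (permutation p = 0.378, adjusted p = 0.883). In control tumours r was 0.47 (permutation p = 0.150, adjusted p = 0.459) and rho 0.50 (permutation p = 0.123, adjusted p = 0.627), and without the 2 farthest tumours r was -0.24 in abemaciclib and 0.45 in control tumours.

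Cdkn1b encodes p27KIP1, whose protein is marked for degradation by the SKP2 ubiquitin ligase. It lies on chromosome 6 (134920401 to 134925513, plus strand). Cdkn1b had lowest, median and highest values of 19.3, 33.8 and 47.1 CPM in abemaciclib tumours, against 35.3, 41.0 and 78.5 CPM in control tumours. Of the abemaciclib tumours 7 of 12 lay below every control tumour and 10 of 12 below the control median (9.54% of tested genes had at least 10 there). The log2 fold change was -0.43 (SE 0.150, 95% interval -0.74 to -0.12), or 0.742 of the control level, with an adjusted p of 0.185 by edgeR, 0.119 by DESeq2 and 0.0967 by limma-voom. Without control tumour 8, the highest at 78.5 CPM, the log2 fold change was -0.33 (adjusted p = 0.314 by edgeR). For Skp2 the log2 fold change was -0.72 (SE 0.273, adjusted p = 0.214 by edgeR, 0.147 by DESeq2 and 0.0420 by limma-voom).

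The 250 bases before the Cdkn1b start are shown for comparison with Cdkn3, with CCAAT boxes in capitals.
Cdkn1b, chr6:134920151-134920400, plus strand: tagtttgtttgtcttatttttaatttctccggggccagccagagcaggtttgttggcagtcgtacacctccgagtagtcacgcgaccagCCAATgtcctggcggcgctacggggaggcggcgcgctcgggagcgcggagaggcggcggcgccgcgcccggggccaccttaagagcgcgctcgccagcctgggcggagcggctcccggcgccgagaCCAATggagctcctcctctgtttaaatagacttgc
Its 2 CCAAT boxes begin 161 and 35 bases before the start, and 10.1% of windows hold at least 2. It held no CHR and no E2F core as searched here.

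Cdkn1a encodes p21CIP1, the classical p53 target that inhibits CDK2 and arrests cells after DNA damage. It lies on chromosome 17 (29090976 to 29100727, plus strand). The values of Cdkn1a, lowest, median and highest, were 139, 195 and 480 CPM in abemaciclib tumours, against 135, 263 and 348 CPM in control tumours. The groups overlapped almost wholly. Below the control median were 8 of 12 abemaciclib tumours, while abemaciclib tumours 3 and 10, at 477 and 480 CPM, lay above every control tumour. The log2 fold change was -0.029 (SE 0.217, 95% interval -0.48 to 0.42, adjusted p = 0.973 by edgeR), an interval that holds changes to between 0.719 and 1.34 of the control level. It was -0.33 without those 2 tumours (adjusted p = 0.337 by edgeR). The same 2 tumours had the highest summed level of 6 basal and myoepithelial markers, 13383 and 9738 CPM. That sum was 1101 to 3300 CPM for the other 10 abemaciclib tumours and 1337 to 5765 CPM for control tumours. High-count markers weigh most in this sum: Krt14 reached 9147 CPM in abemaciclib tumours, while Trp63 and Myh11 reached 151 and 178 CPM. The part of basal and myoepithelial cells in the Cdkn1a values was not tested.

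A p53 site, with at most 1 mismatch to the 20-base consensus, is found in 0.0761% of the promoter windows, and one lies 51 bases before the upstream start of Cdkn1a. It is in capitals.
Cdkn1a, chr17:29090908-29090967, plus strand: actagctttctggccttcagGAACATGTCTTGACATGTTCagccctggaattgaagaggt
Beside this gene, the p53 targets other than Cdkn1a were read: of 13 tested, 7 were positive and 6 negative (median log2 fold change 0.058). At an unadjusted p under 0.05 by edgeR 0 of 13 passed, where 13.4% of all tested genes did. With so few genes, that count does not set this list apart from the panel. Trp53 was at 0.041 (SE 0.173) and Mdm2, the ubiquitin ligase that p53 induces, at 0.13 (SE 0.285).

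Cdkn1c encodes p57KIP2, an imprinted inhibitor of several CDKs. It lies on chromosome 7 (143458339 to 143461050, minus strand). From lowest over median to highest, Cdkn1c was at 13.2, 29.0 and 160.0 CPM in abemaciclib tumours, against 22.1, 36.7 and 74.1 CPM in control tumours. Abemaciclib tumour 2, at 160.0 CPM, lay above every other tumour, and 9 of 12 abemaciclib tumours lay below the control median. The log2 fold change was 0.050 (SE 0.327, 95% interval -0.62 to 0.72, adjusted p = 0.970 by edgeR). It was -0.41 without abemaciclib tumour 2 (adjusted p = 0.394 by edgeR), and its sign also turned when counts were scaled by library totals (-0.0859) or by housekeeping genes (-0.12), so no direction can be given for it.

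**Figure D2:**
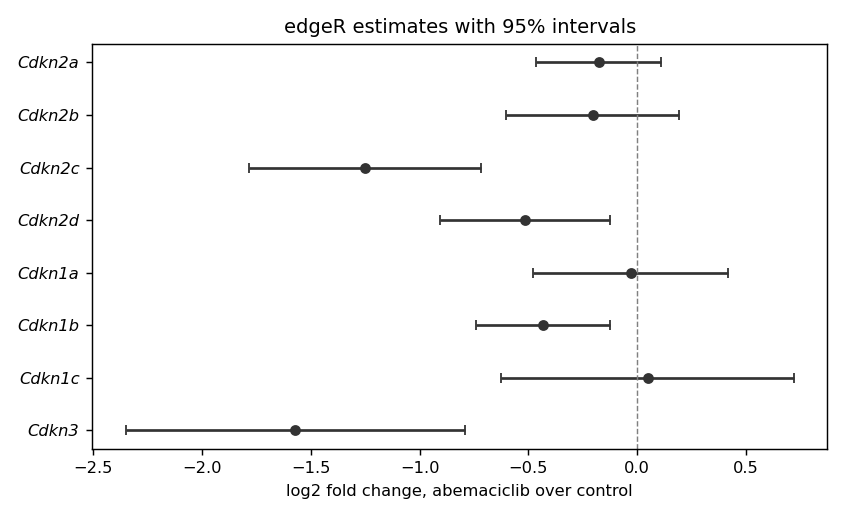
Log2 fold change of each gene, abemaciclib over control (points), with 95% intervals from the edgeR fit (bars). The intervals of Cdkn2c, Cdkn2d, Cdkn1b and Cdkn3 lie below 0 before adjustment, and those of the other 4 genes include 0.

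Expression of mitotic genes was summarised as a G2/M score, the mean centred log2 CPM of 24 mitotic genes that include none of the 8 inhibitors. Its lowest, median and highest values were -2.19, -0.80 and 1.32 in abemaciclib tumours, against -0.38, 0.79 and 1.81 in control tumours, and 7 of 12 abemaciclib tumours lay below every control tumour. All 24 mitotic genes were lower at an unadjusted p under 0.05 by edgeR (24 of 24), where 5.81% of all tested genes were lower. After adjustment edgeR called 0, DESeq2 called 2 and limma-voom called 24 of them lower, where DESeq2 called 0.444% and limma-voom 2.39% of all genes lower. Because the groups differ in this score, each gene was compared with it within each group, with p-values from permutation tests adjusted over the 16 relations.

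Cdkn3 followed the score in both groups. In abemaciclib tumours Pearson's r was 0.90 (permutation p = 0.00014, adjusted p = 0.00112) and Spearman's rho 0.90 (permutation p = 0.00015, adjusted p = 0.0012). In control tumours r was 0.83 (permutation p = 0.00287, adjusted p = 0.0153) and rho 0.75 (permutation p = 0.0115, adjusted p = 0.0462). Without the 2 tumours farthest from the median score r was 0.85 in abemaciclib and 0.43 in control tumours. In control tumours the relation then no longer passed (permutation p = 0.244, adjusted p = 0.434, rho 0.53). Leaving out the most extreme scores narrows their range and leaves 9 control tumours. The lost call therefore does not show that the relation rests on those 2.

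Cdkn2c followed the score in control tumours, with r = 0.94 (permutation p = 3e-05, adjusted p = 0.00048) and rho = 0.93 (permutation p = 0.00015, adjusted p = 0.0012), and r was 0.84 without the 2 farthest tumours. In abemaciclib tumours r was 0.67 (permutation p = 0.0181, adjusted p = 0.0482) and rho 0.66 (permutation p = 0.0217, adjusted p = 0.0613), and r was 0.57 (adjusted p = 0.176) without the 2 farthest tumours. By Pearson's r that relation also missed the threshold with an S-phase score (adjusted p = 0.0700) and with a prior count of 0.5 (adjusted p = 0.0511). With the S-phase score rho was 0.73 (permutation p = 0.00892, adjusted p = 0.0238). The difference between the groups in these correlations was not tested.

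Cdkn1a followed the score among abemaciclib tumours, with r = 0.76 (permutation p = 0.0043, adjusted p = 0.0172) and rho = 0.66 (permutation p = 0.0230, adjusted p = 0.0613), and r was 0.65 (adjusted p = 0.123) without the 2 farthest tumours. In control tumours r was 0.64 (permutation p = 0.0359, adjusted p = 0.0718) and rho 0.61 (permutation p = 0.0525, adjusted p = 0.110). Cdkn2a had r = -0.19 in abemaciclib tumours (permutation p = 0.559, rho -0.19) and r = 0.70 in control tumours (permutation p = 0.0160, adjusted p = 0.0482, rho 0.80 with p = 0.00499, adjusted p = 0.0266), and in control tumours r was 0.79 without the 2 farthest tumours, where its adjusted p was 0.0695. For Cdkn2d r was 0.63 and 0.36 in abemaciclib and control tumours (permutation p = 0.0270 and 0.282, rho 0.57 and 0.21), and neither passed after adjustment. Cdkn1b was at r = -0.36 and 0.47 (permutation p = 0.258 and 0.153, rho -0.48 and 0.23). Cdkn1c and Cdkn2b had r from 0.050 to 0.34 in both groups, with permutation p of 0.313 or more.

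**Figure D3:**
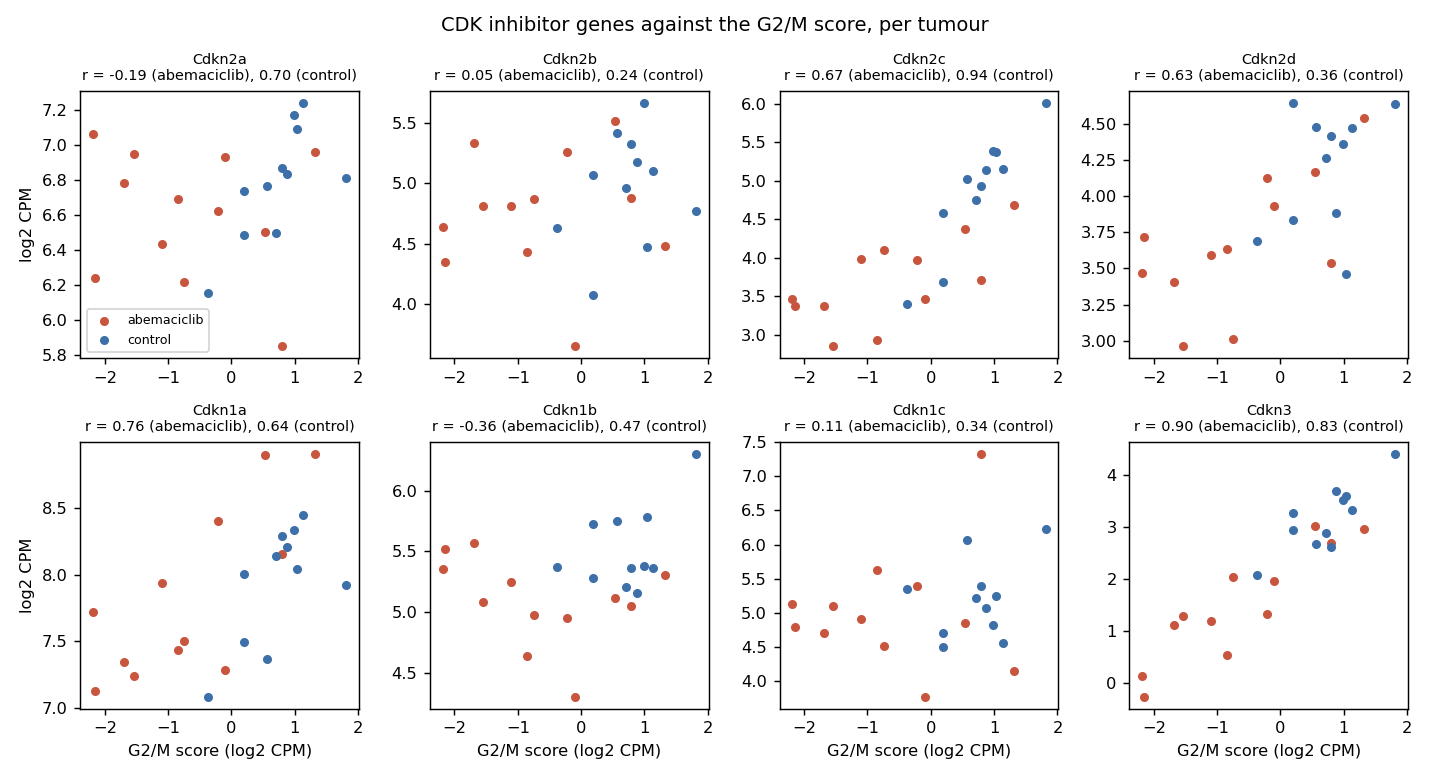
Log2 CPM of each gene against the G2/M score (mean centred log2 CPM of 24 mitotic genes) in each tumour, abemaciclib in red and control in blue, with Pearson's r within each group above each panel. Cdkn3 and Cdkn2c climb along the score, while Cdkn1b does not climb among abemaciclib tumours (r = -0.36).

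In an edgeR fit with this score as a covariate, the log2 fold change of Cdkn3 was -0.55 (adjusted p = 0.221), of Cdkn2c -0.54 (adjusted p = 0.237) and of Cdkn2d -0.17 (adjusted p = 0.706). Cdkn1b stood at -0.47 in that fit (adjusted p = 0.160), close to its value without the covariate. That fit uses a common slope for both groups, while Cdkn1b had r = -0.36 in abemaciclib and 0.47 in control tumours. Its nearly unchanged value therefore does not show that it is independent of the score. Cdkn1a turned sign and stood at 0.52 (adjusted p = 0.102) and Cdkn1c at 0.50 (adjusted p = 0.478). The score comes from the same libraries and differs between the groups, so these values are those left at a given score and the drug and proliferation cannot be told apart here.

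**Figure D4:**
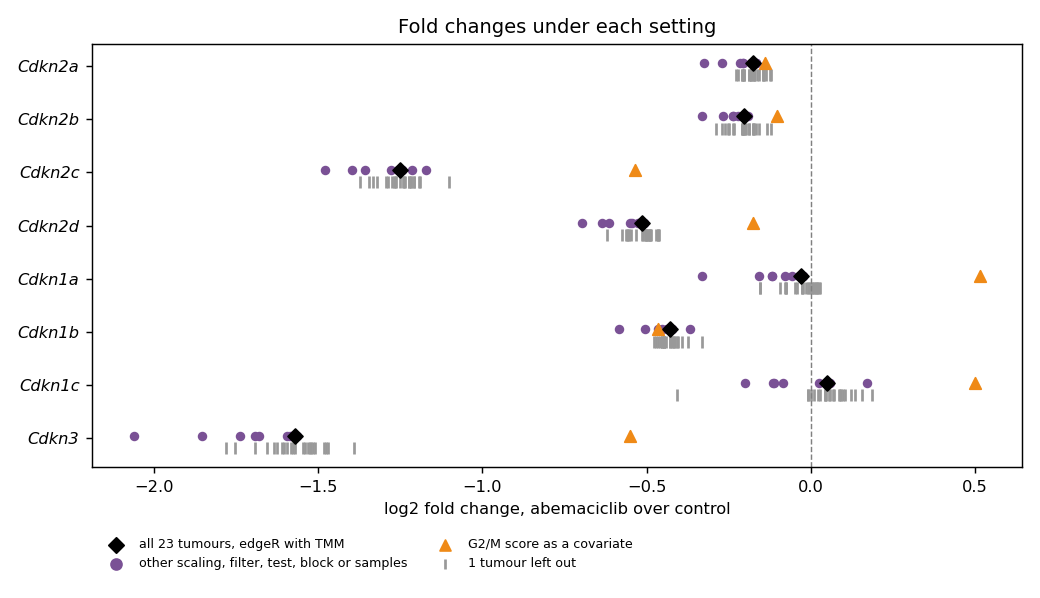
Log2 fold change of each gene, abemaciclib over control, with all 23 tumours by edgeR with TMM (diamonds), with the G2/M score as a covariate (triangles), under the other settings (circles) and with 1 tumour left out (grey bars). Cdkn2c and Cdkn3 stay at -1.10 or lower in all of them except the covariate fit, where they stand at -0.54 and -0.55.

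Among the 8 genes, 56 pairwise relations were examined within the groups. The pair Cdkn1a and Cdkn2c in abemaciclib tumours passed the adjusted threshold by Pearson's r (r = 0.83, permutation p = 8e-04, adjusted p = 0.0448), with rho = 0.80 (permutation p = 0.00276, adjusted p = 0.107) and r = 0.62 without the 2 tumours farthest from the median of Cdkn1a. The pair Cdkn2c and Cdkn3 had r = 0.67 in abemaciclib and 0.79 in control tumours (permutation p = 0.0166 and 0.00405, adjusted p = 0.155 and 0.113, rho 0.73 and 0.77), and r = 0.41 and 0.78 without the 2 farthest tumours. The other 53 relations had adjusted p of 0.113 or more for r and of 0.107 or more for rho.

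The genes most like each inhibitor were taken by Pearson's r of group-centred log2 CPM over the 23 tumours, among 2924 other genes, as a description. For Cdkn3 they were the mitotic cyclins Ccna2 (r = 0.91) and Ccnb2 (r = 0.90) and Slc27a3 (r = 0.89), and 167 genes had r above 0.7. For Cdkn2c they were Lck, a kinase of T cells (r = 0.84), Gmnn, which encodes the replication licensing inhibitor geminin (r = 0.84), and Dck, deoxycytidine kinase (r = 0.82), and 37 genes had r above 0.7. For Cdkn1a they were Pdpn, which encodes podoplanin (r = 0.83), Pard6g, a cell polarity gene (r = 0.82), and Dsc2, the desmosomal cadherin desmocollin (r = 0.81), with 40 genes above 0.7. For Cdkn1b they were Morc3 (r = 0.82), Nudt13 (r = 0.80) and the adhesion molecule Alcam (r = 0.78), with 20 above 0.7. Cdkn1c was most like the WNT receptor gene Fzd9 (r = 0.82), Capn6 (0.71) and Ckb (0.68), and Cdkn2b most like Cspg5 (0.77), Col11a1 (0.72) and Bnip3l (0.69). Cdkn2d was most like Kctd11 (0.75), Tcf3 (0.68) and Pgf (0.67). Cdkn2a had the weakest likeness, with Cbr3 (0.61), Tnfrsf18 (0.58) and Ano10 (0.52), and 0 genes above 0.7.

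Markers of other cell types were read beside these values. T cell markers, among which Lck stands, had a summed level of 22.2 to 105 CPM in abemaciclib and 17.8 to 75.5 CPM in control tumours. At an unadjusted p under 0.05 by edgeR 0 of 5 tested members passed, where 13.4% of all tested genes did. All 10 T cell markers of the panel had counts in some tumour, with Cd3e detected in all 23. Of the 5 tested T cell members 4 were positive, with a median log2 fold change of 0.31. Lck was the 1 negative member, at -0.40 (SE 0.380). Macrophage markers had a summed level of 1920 to 4565 CPM in abemaciclib and 1447 to 3031 CPM in control tumours, with 7 of 7 tested members positive. At an unadjusted p under 0.05 by edgeR 4 of the 7 were higher, where 7.59% of all tested genes were higher. After adjustment edgeR called 0 of the 7, DESeq2 3 and limma-voom 3. DESeq2 called 1.61% and limma-voom 1.95% of all genes higher. The part of these cells in the levels of the inhibitors was not tested.

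The genes that work with the inhibitors were read in the same fit, by lists. Over all tested genes, 5.81% were lower and 7.59% higher at an unadjusted p under 0.05 by edgeR, and limma-voom called 2.39% and DESeq2 0.444% lower. Of 16 tested CDKs and cyclins, 7 were lower and 1 higher at an unadjusted p under 0.05, with a median log2 fold change of -0.17. After adjustment edgeR and DESeq2 called 0 of these 16, and limma-voom called 5 lower. Ccna2, the cyclin of S phase and G2, was at -1.32 (SE 0.423), and 4 members are also in the G2/M list. Cdk2, the kinase that CIP/KIP proteins block, was at -0.39 (SE 0.170, adjusted p = 0.299 by edgeR). The kinases that INK4 proteins bind were at -0.14 (Cdk4, SE 0.222) and 0.057 (Cdk6, SE 0.206). Their partner Ccnd1, which encodes cyclin D1, was at -0.16 (SE 0.321), and Ccne1, which encodes a cyclin E that pairs with CDK2, was at -0.11 (SE 0.429). Mki67, the proliferation marker, was at -1.04 (SE 0.339), and its adjusted p was 0.150 by edgeR, 0.0641 by DESeq2 and 0.0111 by limma-voom. Of 12 tested RB and E2F genes, 11 were negative with a median of -0.41, and 5 were lower at an unadjusted p under 0.05. After adjustment edgeR and DESeq2 called 0 of the 12, and limma-voom called 2 lower. Rb1, which encodes the retinoblastoma protein, was at 0.042 (SE 0.131). Foxm1, a factor that drives mitotic genes, was at -1.01 (SE 0.315, adjusted p = 0.134 by edgeR, 0.0547 by DESeq2 and 0.0111 by limma-voom), and E2f2, an activating E2F factor, at -0.53 (SE 0.188, adjusted p = 0.190 by edgeR). Of 22 tested regulators of the INK4 locus, 2 were lower and 1 higher at an unadjusted p under 0.05 by edgeR, a share near the 13.4% of all tested genes, and 0 were called by DESeq2 or limma-voom. Ezh2, the Polycomb methyltransferase that silences the locus, was at -0.42 (SE 0.156), and Bmi1, another Polycomb repressor of it, at 0.18 (SE 0.0810), with adjusted p of 0.206 and 0.317 by edgeR.

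In the list of p27 turnover and transcription, 1 of 9 tested genes, Skp2, was lower at an unadjusted p under 0.05 by edgeR. Of all tested genes 5.81% were lower. Cks1b, the cofactor of SKP2, was at -0.24 (SE 0.162), with Foxo3, a factor that induces Cdkn1b, at 0.28 (SE 0.162). Of 10 tested genes of the TGF-beta pathway, which induces Cdkn2b, 8 were positive with a median of 0.095. Only 1 of the 10, Tgfbr1, was higher at an unadjusted p under 0.05 by edgeR and 0 were lower. Of all tested genes 7.59% were higher. Tgfbr1, a receptor of that pathway, was at 191 CPM in abemaciclib and 138 CPM in control tumours on average. Its log2 fold change was 0.47 (SE 0.113), and the adjusted p was 0.0651 by edgeR, 0.00816 by DESeq2 and 0.00948 by limma-voom. Cdkn2b was at -0.20 in the same tumours, with a 95% interval of -0.60 to 0.19 that includes 0. Its relation to this pathway was not tested.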

How the data were processed

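RNA of 23 tumours, 12 abemaciclib and 11 control, was amplified with a custom panel of 1 short amplicon for each of 3826 genes, per the labels' protocols. The deposited values are raw read counts per gene, with no normalization by the authors. Reads were placed on mm10, as the submitters' processing notes list. Neither aligner nor counting program is given in the sources used here. Without molecular identifiers, PCR copies are part of each count. Gene positions come from GENCODE M21 (GRCm38), 1-based.

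The main test was edgeR 4.0.16 in R 4.3.3: filterByExpr, TMM, glmQLFit and glmQLFTest, two-sided, Benjamini-Hochberg adjusted over 2925 genes at 0.05. The common biological coefficient of variation was 32.6%. DESeq2 1.42.0 and limma 3.58.1 (voom with quality weights) were alternatives. Correlations used log2 CPM with a prior count of 2 and two-sided permutation tests with 100000 resamples in numpy 2.4.6. Fits were tested on simulated counts. No 2 of 253 pairs of tumours agreed within sampling noise (smallest chi-square per degree of freedom 18.4). The genes named are the 8 members, the 3 most like each, 10 regulators whatever their result, and others drawn from the 3 with the smallest p in each list. Members, lists and rules were chosen with earlier results of these data known. Epcam, Krt8 and Cd3e were chosen after their values were seen.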

Additional observations from a re-analysis of the deposited data

How the results depend on the processing

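Of the 8 genes, Cdkn1b, Cdkn2a, Cdkn2b, Cdkn2c, Cdkn2d and Cdkn3 kept a negative sign under each setting run. Cdkn2c and Cdkn3 crossed the threshold with DESeq2's Wald test (-1.25 and -1.58), with limma-voom (-1.17 and -1.86) and without abemaciclib tumours 3 and 10, whose standing apart was known from earlier work (-1.48 and -2.06, adjusted p = 0.00686 for each). Cdkn2d crossed it with limma-voom (-0.64) and without those 2 tumours (-0.70, adjusted p = 0.0340). Those 2 tumours held the highest abemaciclib values of Cdkn2c, Cdkn3 and Cdkn2d. Leaving them out was therefore bound to lower these fold changes, and that setting is no separate support. Cdkn1c turned negative with library totals (-0.0859), housekeeping scaling (-0.12), limma-voom (-0.11) and the replicate block (-0.20), and Cdkn1a turned positive with the G2/M score as a covariate (0.52). Library totals moved the median of all genes to -0.12.

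The number of genes called was 1 with library totals, 60 with DESeq2, 127 with limma-voom, 93 without abemaciclib tumours 3 and 10, 172 with the score as a covariate, and 0 to 47 over the fits that left out 1 tumour. Those 23 fits gave log2 fold changes of -1.37 to -1.10 for Cdkn2c, -1.78 to -1.39 for Cdkn3, -0.62 to -0.46 for Cdkn2d, -0.48 to -0.33 for Cdkn1b, -0.23 to -0.12 for Cdkn2a, -0.29 to -0.12 for Cdkn2b, -0.16 to 0.0268 for Cdkn1a and -0.41 to 0.19 for Cdkn1c. Cdkn2c passed the threshold in 5 of them, without abemaciclib tumour 2, 3 or 10 or control tumour 1 or 6, and Cdkn3 in 3, without abemaciclib tumour 2, 3 or 10. The cause was not tested. With a mean count of at least 50 Cdkn3 was not tested.

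Tumours with the same number deviated together in 5 of 11 pairs (correlation above 0.1, range -0.43 to 0.45). Of the 11 control tumours, 2 deviated most like the abemaciclib tumour of their own number. These values were not tested against a reference, so they do not settle whether the numbers pair tumours. With the replicate block 0 genes were called, and the adjusted p was 0.159 for Cdkn2c (-1.21) and Cdkn3 (-1.69).

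Correlations with the score are given here by Pearson's r unless rho is named. Library totals raised Cdkn1a and Cdkn1b in control (0.78, 0.70) and Cdkn2d in abemaciclib tumours (0.76) past the threshold. They also turned the sign of Cdkn1b (0.0465) and Cdkn2a (0.19) in abemaciclib tumours. The S-phase list ended the calls of Cdkn2a in control (0.64) and Cdkn2c in abemaciclib tumours (0.65). Spearman's rho passed for both with that list (0.78 and 0.73, permutation adjusted p = 0.0238 for each). The list also turned Cdkn2b in abemaciclib tumours (-0.0446), and a prior count of 0.5 ended the call of Cdkn2c in abemaciclib tumours (0.66). Without the 2 farthest tumours the calls of Cdkn1a (0.65) and Cdkn2c (0.57) in abemaciclib and of Cdkn3 (0.43) in control tumours were lost. For Cdkn2a in control tumours r was higher, at 0.79, though its permutation adjusted p was 0.0695. Its rho of 0.88 still passed (permutation adjusted p = 0.0204). Cdkn1b (-0.15) and Cdkn2d (-0.19) in control and Cdkn1c (-0.20) in abemaciclib tumours turned sign. Depth limits Cdkn3 most, at 1 to 99 counts per tumour.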
